A study of Mus musculus with 64 samples.

Results

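Microglia from the hippocampus of mice in the condition labelled Soci were compared with those of the condition labelled Cogn in 16 of the 64 libraries of the series. The 16 were taken by their labels, with 8 libraries of each condition, 4 labelled Day and 4 labelled Night. The other 48 libraries hold the conditions Ctr0 and Ctr1 and the same 4 conditions in microglia of the frontal cortex. Both conditions come from adult male mice of the strain C57BL/6 per the labels, given as C57BL6/N in the methods of the study, with no transgene or drug named in the labels. The labels do not say what Soci and Cogn stand for or which of them serves as a reference, so both conditions keep their labelled names here. The study sampled microglia in the light phase and in the dark phase of a reversed light-dark cycle, and the labels call the phases Day and Night. The cells shared their isolation, by perfusion of the animal, dissociation of the tissue in the cold and capture with magnetic beads against CD11b, a surface protein that microglia share with other myeloid cells. Nothing in the labels says whether the 4 libraries of a group came from separate animals, so p-values measure the spread between these libraries only.

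Microglia are the resident macrophages of the brain. They survey the tissue with motile processes, clear dying cells and synapses, and respond to signals from neurons through receptors such as P2ry12 and Cx3cr1. They carry a molecular clock of their own, in which Clock and Arntl drive the genes of their repressors, and their homeostatic state is marked by P2ry12, Tmem119 and other genes that are lost when the cells are activated.

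The total count per library lay between 11.6 and 84.5 M. Night Soci replicate 4, Night Cogn replicate 4 and Day Cogn replicate 4 held 84.5, 65.7 and 62.2 M, against at most 20.1 M in the other 13. Totals did not differ between the conditions beyond the spread of the libraries (exact permutation test within phases, two-sided, p = 0.447, n = 8 and 8). Genes that mark microglia were well above the count filter in both conditions. The receptor gene Csf1r lay between 3383 and 5602 CPM (counts for each 1 M counts of a library, after the totals were rescaled to make libraries comparable) in Soci and between 3297 and 5272 CPM in Cogn. Itgam, which encodes CD11b, lay between 101 and 136 CPM in Soci and between 93.4 and 131 CPM in Cogn. In the list of 24 homeostatic microglia markers, all 24 passed the count filter, and their differences between Soci and Cogn ran from -0.10 to 0.15 on the log2 scale with a median of 0.00. Of 14 lymphocyte markers, 12 averaged under 1 count in 1 M counts outside the ribosomal loci. Markers of some other cell types were well above that. In the same unit, the summed choroid plexus markers ran from 61.0 to 1826 in Day Soci and from 127 to 1477 in Day Cogn. In Night they ran from 2242 to 7185 in Soci and from 3553 to 7190 in Cogn.

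Sequences are given for 3 long non-coding RNAs. Gm26917 is shown because it held from 23.4% to 44.9% of the counts of a library and its share is compared between the conditions. Gm37233 and Gm16576 are shown because they were the only genes with higher levels in Soci that the alternative tool DESeq2 called over both phases. The first 120 bases of the annotated transcript are printed in lower case, 5′ to 3′, from the GENCODE M21 annotation of build GRCm38. The stretches are chr17:39843013-39843132 on the plus strand for Gm26917, chr1:34433145-34433264 on the minus strand for Gm37233 and chr15:79742698-79742817 on the plus strand for Gm16576. All lie in the first exon of the transcript.
Gm26917: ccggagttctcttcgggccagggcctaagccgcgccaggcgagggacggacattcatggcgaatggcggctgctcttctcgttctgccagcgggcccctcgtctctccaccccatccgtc
Gm37233: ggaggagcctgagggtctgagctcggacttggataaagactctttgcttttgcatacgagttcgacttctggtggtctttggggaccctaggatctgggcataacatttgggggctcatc
Gm16576: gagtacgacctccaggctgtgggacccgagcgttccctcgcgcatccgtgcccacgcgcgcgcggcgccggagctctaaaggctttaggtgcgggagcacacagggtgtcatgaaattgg
G and C made up 67.5% of the bases shown for Gm26917, 52.5% for Gm37233 and 65.8% for Gm16576.

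Gm26917 took up a smaller share of the counts in Soci than in Cogn. This share was chosen for a test because an earlier result of these data gave a difference among the 4 conditions. Its p-values therefore come from libraries that had already shown a difference and are not those of a fresh test. Gm26917 is annotated as a long intergenic non-coding RNA and lies beside Gm42418, which overlaps an annotated ribosomal gene, and both loci are known to collect reads of ribosomal RNA. In Day the share was 38.8%, 34.8%, 32.2% and 30.1% in Soci replicates 1 to 4 and 40.2%, 44.9%, 41.1% and 38.5% in Cogn. In Night it was 36.3%, 27.3%, 23.4% and 28.7% in Soci and 42.9%, 36.6%, 27.1% and 38.6% in Cogn. The groups overlapped in both phases, in Day by 1 Soci library that lay above the lowest Cogn library. Over both phases the mean was 31.4% ± 5.09 in Soci and 38.7% ± 5.39 in Cogn (SD, n = 8 and 8), and the mean of the within-phase differences, -7.29 percentage points, was larger than the spread of the libraries (exact permutation test within phases, two-sided, p = 0.0110). Without the libraries numbered 2 the difference was -6.49 points (exact permutation test, p = 0.075) and without those numbered 4 it was -6.66 points (p = 0.055), so the call did not hold without either set. Within one phase the difference was -7.21 points in Day (exact permutation test, p = 0.0571) and -7.37 points in Night (p = 0.143), where 4 libraries against 4 can give no p below 0.0286. In the frontal cortex the difference was -1.32 points (exact permutation test, p = 0.583), and the difference between the regions was not larger than the spread (exact permutation test, p = 0.119). The shares of the other hippocampal conditions lay between 29.3% and 52.2%, with means of 39.5% ± 6.01 in Ctr0 and 43.6% ± 7.05 in Ctr1 (SD, n = 8).

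**Figure D1:**
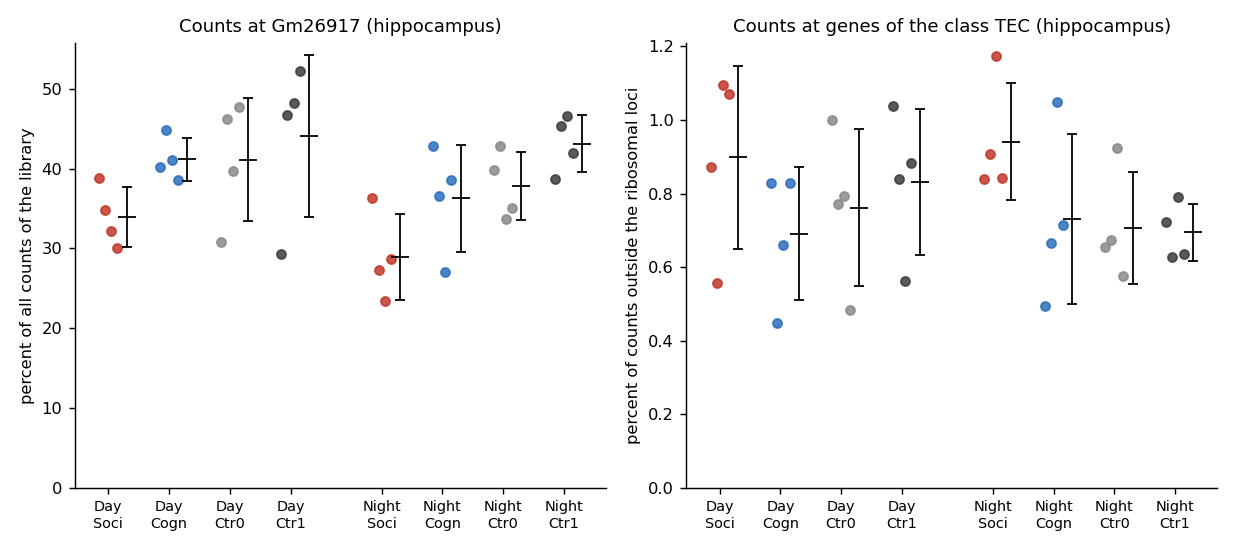
Share of each hippocampal library's counts at Gm26917 (left, percent of all counts) and at genes of the annotation class TEC (right, percent of counts outside the ribosomal loci), by phase and condition. Points are the 4 libraries of a group and black bars the mean ± SD. At Gm26917 the 8 Soci libraries sit between 23.4% and 38.8% and the 8 Cogn libraries between 27.1% and 44.9%.

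The bulk of genes moved with the scaling of the libraries. Scaled on library totals alone, the median of all genes was higher in Soci by 0.24 on the log2 scale, and with the scaling used throughout (TMM, which sets the bulk of genes equal) it was 0.00. All differences below are relative to the bulk of genes.

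Across all genes, none passed an adjusted p under 0.05 in edgeR when the libraries of a group were taken as unpaired. Of the 16448 genes tested over both phases, edgeR called 0 (0%), with a lowest adjusted p of 0.408, and DESeq2 called 3. With same-numbered libraries of each phase taken as pairs, a pairing that the labels do not state, edgeR called 2512, 990 higher and 1522 lower in Soci. At an unadjusted p under 0.05 there were 1980 genes (12% of those tested), 957 higher (5.82%) and 1023 lower (6.22%) in Soci. In Day alone 0 were called by edgeR and 0 by DESeq2, with 542 at an unadjusted p under 0.05 (3.30%), 221 of them higher (1.34%) and 321 lower (1.95%) in Soci. In Night alone edgeR called 0 and DESeq2 1, with 797 at an unadjusted p under 0.05 (4.85%), 506 of them higher (3.08%) and 291 lower (1.77%). The 95% interval of the difference lay within 2-fold in either direction for 14469 genes (88.0%), and for 10544 of the 11216 genes (94.0%) whose log2 CPM averaged 2 or more. The number at an unadjusted p under 0.05 depended on single libraries. It was 648 without the libraries numbered 4 and 4248 without Night Cogn replicate 3, while the number of calls was 0 in all 20 fits that left out libraries.

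The 3 genes that DESeq2 called were Syne3, lower in Soci, and Gm37233 and Gm16576, higher in Soci. They were named for that call, after their values were seen. Syne3 encodes nesprin-3, which ties the nuclear envelope to the cytoskeleton. In Day its level was 2.53, 2.09, 2.80 and 2.36 CPM in Soci and 2.41, 3.81, 4.47 and 4.40 CPM in Cogn, and in Night it was 3.18, 3.39, 3.23 and 2.87 CPM in Soci and 6.15, 3.87, 4.44 and 5.17 CPM in Cogn. The Night groups did not overlap, and in Day 1 Cogn library lay within the Soci range. Its difference was -0.64 ± 0.13 on the log2 scale (SE). Gm37233 lay between 29.3 and 41.0 CPM in Day Soci and between 24.8 and 33.2 CPM in Day Cogn, and between 38.9 and 49.1 CPM in Night Soci and between 29.7 and 33.3 CPM in Night Cogn, with a difference of 0.38 ± 0.08 (SE, log2). Gm16576, which is transcribed away from a coding gene's promoter, lay between 13.5 and 14.9 CPM in Night Soci and between 8.86 and 9.87 CPM in Night Cogn, and its Day groups overlapped. The difference was 0.44 ± 0.10 (SE, log2).

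Among genes whose log2 CPM averaged 2 or more, the 12 with the lowest p and a higher level in Soci had small differences, between 0.19 and 0.48 on the log2 scale. None of the 12 passed the adjusted threshold in edgeR (adjusted p = 0.408 each). Gatb encodes a subunit of the mitochondrial amidotransferase that makes glutaminyl-tRNA and spans 85574119 to 85655622 on chromosome 3. Its level in Day was 15, 14.4, 16.9 and 14.8 CPM in Soci and 13.2, 13.5, 11.9 and 13.1 CPM in Cogn. In Night it was 17.2, 16.3, 17.4 and 15.3 CPM in Soci and 12.4, 14, 14.7 and 13.7 CPM in Cogn. The groups did not overlap in either phase. The difference was 0.26 ± 0.06 (SE, log2). Dglucy, which encodes the mitochondrial D-glutamate cyclase, lay between 23.1 and 27.3 CPM in Day Soci against 19.0 to 23 CPM in Day Cogn, and between 25.8 and 30.1 CPM in Night Soci against 19.5 to 24.6 CPM in Night Cogn. Its groups did not overlap in either phase. Over all genes tested, 558 (3.39%) did not overlap in Day, 544 (3.31%) did not overlap in Night, and 3 (0.0182%) did not overlap in either phase with the same direction.

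Other genes of the 12 have roles in nutrient signalling, the oxidative burst and chromatin. Nprl3 encodes a subunit of the GATOR1 complex, which restrains mTORC1. Its level was 19.4, 16.1, 18.7 and 20.9 CPM in Day Soci and 16.2, 15.6, 14.4 and 17.6 CPM in Day Cogn, which overlapped. In Night it was 22.2, 21.6, 22.4 and 21.3 CPM in Soci and 18.1, 15.1, 18.5 and 17.5 CPM in Cogn, which did not. Ncf4 encodes the p40phox subunit of the phagocyte NADPH oxidase. It lay between 22.8 and 26.4 CPM in Night Soci and between 18.2 and 20.3 CPM in Night Cogn, and the Day groups overlapped. Kdm2b, a histone demethylase that brings Polycomb complexes to CpG islands, differed by 0.19 ± 0.05 (SE, log2), and Mto1, which modifies mitochondrial tRNAs, by 0.22 ± 0.06. Dgkd, a kinase that converts diacylglycerol to phosphatidic acid, differed by 0.19 ± 0.05 and was the most abundant of the 12, with 172 to 187 CPM in Day Soci. The remaining members Adamts16, Dqx1, Zfp799 and Btbd19 differed by 0.32, 0.48, 0.29 and 0.26 on the log2 scale.

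The 12 genes with the lowest p and a lower level in Soci differed by between -0.24 and -0.75 on the log2 scale (edgeR, adjusted p = 0.408 each). Apoe encodes the main lipid carrier of the brain and is a gene that microglia raise near plaques and in damaged tissue. In Day its level was 153, 254, 138 and 210 CPM in Soci and 218, 266, 292 and 259 CPM in Cogn. In Night it was 141, 181, 176 and 165 CPM in Soci and 230, 219, 190 and 229 CPM in Cogn. The Night groups did not overlap, and in Day 1 Soci library lay above the lowest Cogn library. The difference was -0.42 ± 0.11 (SE, log2). In Ctr0 and Ctr1 the mean level of Apoe lay between 175 and 238 CPM in the 4 groups. Ildr2 encodes a membrane protein of the immunoglobulin superfamily and had the lowest p of the 24. It measured 15.9, 17.2, 18.9 and 14.3 CPM in Day Soci and 18.5, 23.7, 23.1 and 20.9 CPM in Day Cogn. It measured 19.7, 19.7, 19.3 and 17.9 CPM in Night Soci and 25.1, 24, 19.6 and 24.6 CPM in Night Cogn. The groups overlapped by 1 Cogn library in each phase, and the difference was -0.33 ± 0.07 (SE, log2).

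Rara, the retinoic acid receptor alpha, lay between 1.63 and 2.80 CPM in Day Soci and between 2.41 and 4.74 CPM in Day Cogn. In Night it lay between 4.01 and 5.24 CPM in Soci and between 4.75 and 8.92 CPM in Cogn, so it overlapped in both phases. Its difference was -0.67 ± 0.17 (SE, log2). Colec12, a scavenger receptor, lay between 5.51 and 5.74 CPM in Night Soci and between 6.63 and 9.24 CPM in Night Cogn, without overlap, and its Day groups overlapped. Anxa5, which binds phosphatidylserine on dying cells, differed by -0.29 ± 0.08, and Glcci1, named for its induction by glucocorticoids, by -0.44 ± 0.12. The matrix gene Col18a1, the adhesion gene Sdk2 and the kinase gene Dmpk differed by -0.52 ± 0.14, -0.65 ± 0.19 and -0.75 ± 0.21. Ranbp9, Hpcal1 and Kbtbd11 differed by -0.25, -0.24 and -0.37 on the log2 scale. Scaled on library totals, the sign of Hpcal1 turned and its difference was 0.0052.

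**Figure D2:**
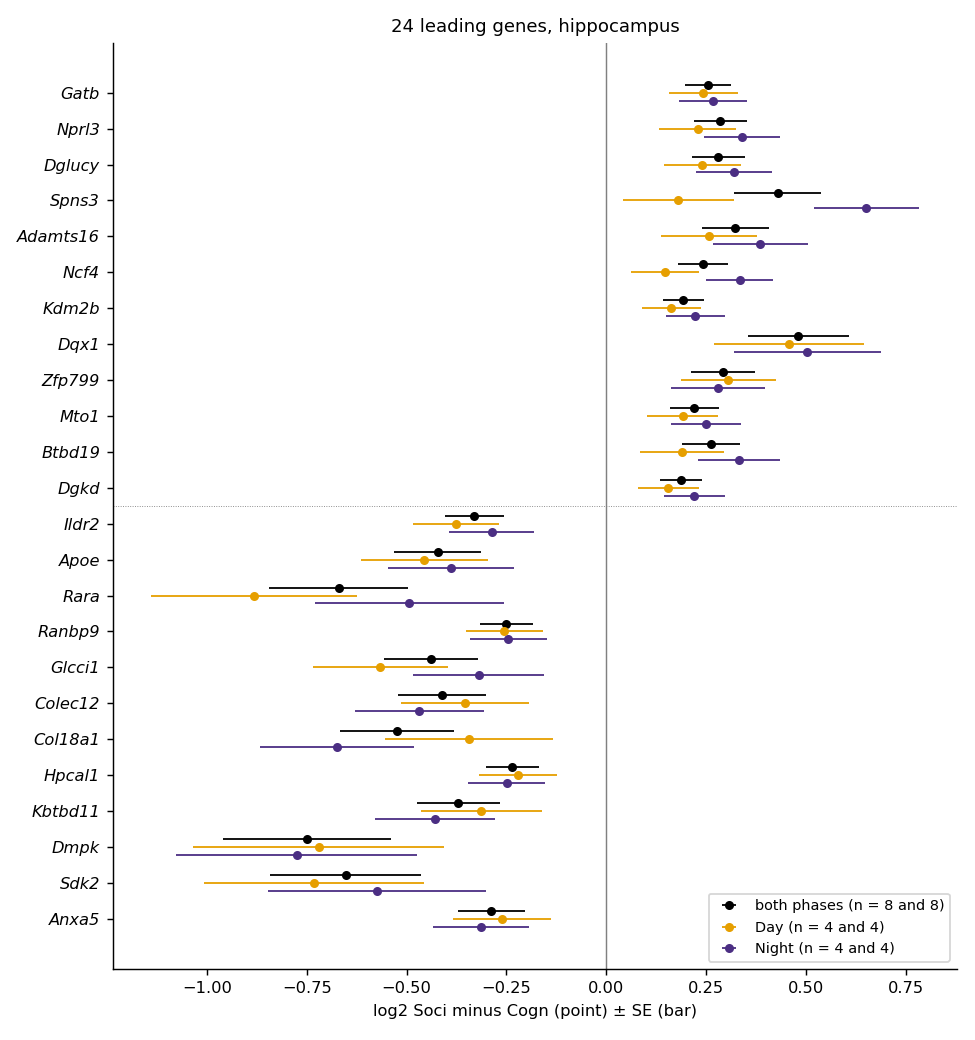
Differences between Soci and Cogn in hippocampal microglia for the 24 leading genes, on the log2 scale relative to the bulk of genes (points) with SE (bars), over both phases and in each phase. The 12 genes above the dotted line were higher and the 12 below it lower in Soci. For every gene the Day and Night points lie on the same side of 0. The genes were picked for low p over both phases of these same libraries, which favours a shared sign. Of all genes tested 72.5% had the same sign in both phases.

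Each phase was also examined apart. In Day, the 3 of lowest p with a higher level in Soci were Mcts1, a factor for restarting translation, Armc8, part of the CTLH ubiquitin ligase, and Atg4c, a protease of autophagy. Mcts1 was at 16.6, 15.7, 17.4 and 16.6 CPM in Soci and 13.6, 11.3, 11.1 and 13.7 CPM in Cogn, without overlap. Its Day difference was 0.41 ± 0.11 (SE, log2) and its Night difference 0.10 ± 0.11. The Day differences of Armc8 and Atg4c were 0.33 ± 0.10 and 0.32 ± 0.11. The 3 of lowest p with a lower level in Day were Ildr2, Rara and Fxyd5, a regulator of the sodium pump. Fxyd5 lay between 6.43 and 7.81 CPM in Soci and between 7.11 and 20.8 CPM in Cogn, with a difference of -0.90 ± 0.26 (SE, log2) that was -0.57 without Day Cogn replicate 3. The adjusted p was 0.837 for each of these 6 genes (edgeR).

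In Night the leading gene was Spns3, a member of the Spinster family of membrane transporters. Its level was 11.4, 10.7, 11.1 and 10.5 CPM in Soci and 6.39, 6.78, 7.05 and 7.45 CPM in Cogn. The 4 Soci libraries lay close together and above all 4 Cogn libraries. The Night difference was 0.65 ± 0.13 (SE, log2; edgeR, adjusted p = 0.814), and DESeq2 called this gene. Its Day difference was 0.18 ± 0.14. The Night libraries of Ctr0 and Ctr1 lay between 6.61 and 10.5 CPM, so that the Cogn libraries were within their range or just below it. Trp53cor1, the long non-coding RNA also called lincRNA-p21, was at 11.5, 12.8, 14.8 and 15.1 CPM in Night Soci and 8.50, 9.88, 7.94 and 9.54 CPM in Night Cogn, a difference of 0.59 ± 0.14. With same-numbered Night libraries taken as pairs, edgeR called 1 gene, Scarna6, a small RNA of Cajal bodies that was lower in Soci.

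The 3 genes of lowest p with a lower level in Night Soci were haemoglobin genes. Hbb-bs, which encodes a beta chain, was at 12.9, 19.9, 14.9 and 15 CPM in Night Soci and 43.8, 70.2, 34.8 and 120 CPM in Night Cogn, without overlap. In Day it was at 92.5, 20.3, 36.9 and 9.75 CPM in Soci and 54.5, 38.1, 50.2 and 31.4 CPM in Cogn, with the Cogn libraries inside the Soci range. Its difference was -2.11 ± 0.52 in Night and -0.12 ± 0.50 in Day (SE, log2). Hba-a1 and Hbb-bt differed by -2.22 ± 0.55 and -2.27 ± 0.56 in Night (edgeR, adjusted p = 0.814 for all 3). The summed level of the 5 genes on the haemoglobin list lay between 52.5 and 84.5 counts in 1 M counts outside the ribosomal loci in Night Soci and between 137 and 467 in Night Cogn. These genes are made by red blood cells and their precursors, and fewer cells of a type and less RNA per cell cannot be told apart in bulk samples. The Night Ctr0 and Ctr1 libraries lay between 19.5 and 109 CPM of Hbb-bs, a range that overlapped both.

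**Figure D3:**
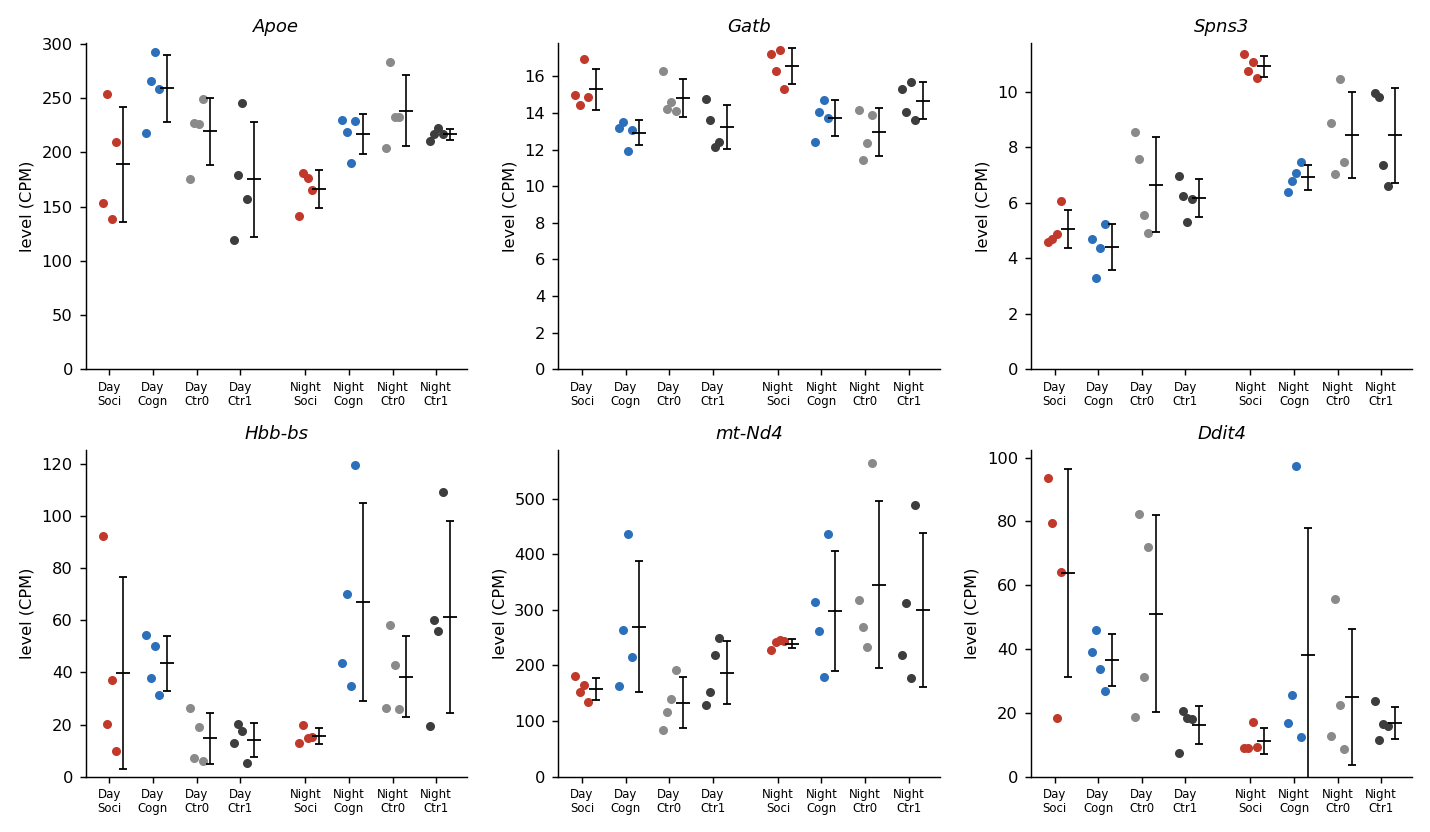
Levels (CPM) of 6 genes in the hippocampal libraries by phase and condition, with 4 libraries a group as points and the mean ± SD as black bars (bars are cut at 0). Night Soci lies apart from Night Cogn for Apoe, Gatb, Spns3 and Hbb-bs, and the groups overlap for mt-Nd4 and Ddit4.

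Whether the difference between Soci and Cogn itself differed between Day and Night was tested as an interaction. EdgeR called 0 genes (0%) and DESeq2 0, with 165 at an unadjusted p under 0.05 (1.00%). The gene of lowest p at this level was Ddit4, which encodes REDD1, an inhibitor of mTORC1 that responds to stress and glucocorticoids. It was at 93.5, 79.6, 18.5 and 64.1 CPM in Day Soci and 39.1, 46.0, 33.8 and 27.0 CPM in Day Cogn. In Night it was at 8.90, 9.04, 17.1 and 9.35 CPM in Soci and 16.8, 25.5, 97.5 and 12.5 CPM in Cogn. Single libraries stood far from their group in both phases. The difference was 0.82 ± 0.55 in Day and -1.78 ± 0.57 in Night, and the Day minus Night difference of 2.60 ± 0.79 did not pass the adjusted threshold (SE, log2; edgeR, adjusted p = 1.00) and was 1.53 without Night Cogn replicate 3. The other genes by the rule were Prps1 and Hbb-bs, with a difference more positive in Day, and BC005624, Nmral1 and Sh2d3c, with one more positive in Night. Of all genes tested 72.5% had the same sign in both phases, and of the 542 genes at an unadjusted p under 0.05 in Day 88.4% had the same sign in Night.

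The homeostatic genes of microglia differed little between the conditions, and the medians of the immune gene lists lay between -0.10 and 0.07. Single immune genes differed by more. The lists were described by counts and medians, and none of their members was called by edgeR in any of the 3 comparisons without a replicate block. The median over all 16448 genes was 0.00, and 12% of them had an unadjusted p under 0.05. None of the 24 homeostatic markers did, and P2ry12, the ADP receptor, and Tmem119 differed by 0.01 ± 0.12 and -0.04 ± 0.09 (SE, log2). Among 24 disease-associated markers tested, 23 had a lower estimate in Soci and 2 an unadjusted p under 0.05, which were Apoe and the ferritin gene Fth1 at -0.23 ± 0.09. The 21 complement genes had a median of -0.08, with 2 of them, the activator properdin Cfp at -0.53 ± 0.18 and the inhibitor Cd59a at -0.43 ± 0.15, at an unadjusted p under 0.05. The 28 genes of NF-kB and Toll-like receptor signalling had a median of 0.07, 21 with a higher estimate. The 3 at an unadjusted p under 0.05 were all higher in Soci, among them the inhibitor gene Nfkbie at 0.21 ± 0.06, and Nfkbiz at 0.28 ± 0.09. Of 17 cytokines and chemokines tested, Il18 alone had such a p, at 0.21 ± 0.09. The 29 interferon-stimulated genes had a median of -0.01, with Ifitm2 at -0.82 ± 0.21 and Mx2 at 0.30 ± 0.11. The 22 antigen presentation genes had a median of -0.06 and the 30 lysosome genes -0.02.

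Clock genes and genes that follow hormones and activity had lower estimates more often than higher ones. Over all 16448 genes tested, 8419 had a lower estimate and 12% an unadjusted p under 0.05. Of 21 clock genes, 17 had a lower estimate in Soci, the median was -0.13, and 4 had an unadjusted p under 0.05. These were Npas2 at -0.55 ± 0.22, a partner of Arntl, Per2 at -0.42 ± 0.19, a repressor, Bhlhe40 at -0.35 ± 0.15 and the activator Rora at -0.20 ± 0.09 (SE, log2). Per2 was at 22.5, 24.3, 28.7 and 23 CPM in Day Soci and 17.3, 29.4, 43.8 and 33.4 CPM in Day Cogn, and at 14.7, 7.81, 8.63 and 8.61 CPM in Night Soci and 21.8, 9.82, 11.9 and 12.7 CPM in Night Cogn. The groups overlapped in both phases. The core activators Clock and Arntl differed by 0.02 ± 0.09 and -0.02 ± 0.09. The estimates of Per1 and the repressor Nfil3 were -0.62 ± 0.22 and -0.53 ± 0.16 in Night and 0.12 ± 0.22 and 0.07 ± 0.16 in Day, and neither gene passed in either phase or for the phase difference. Cry1, Cry2, Per3, Nr1d1, Nr1d2, Dbp, Tef, Hlf, Ciart, Rorb, Arntl2 and Bhlhe41 lay between -0.35 and 0.10 over both phases. Of 20 glucocorticoid-responsive genes 17 had a lower estimate, with a median of -0.23, -0.38 in Night and -0.01 in Day. Without Night Cogn replicate 3 the median of this list was -0.10, and without Night Cogn replicate 1 that of the clock genes was -0.08. Klf9 and Cdkn1a had an unadjusted p under 0.05, at -0.34 ± 0.12 and -0.29 ± 0.13. The 25 immediate early genes had a median of -0.09, with Sik1 and Klf2 both at -0.32.

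The genes of metabolism included the list with the highest share of low p-values after haemoglobin. Over all genes tested 12% had an unadjusted p under 0.05, and of protein-coding genes 42.8% had a higher estimate. All 7 messenger RNAs of the mitochondrial genome that passed the filter had a lower estimate in Soci, with a median of -0.40, and 6 had an unadjusted p under 0.05. Of the 13 on the list, 6 had no count in any of the 16 libraries and were not tested. mt-Nd4, a subunit of complex I, was at 181, 151, 165 and 134 CPM in Day Soci and 163, 263, 435 and 216 CPM in Day Cogn. In Night it was at 227, 241, 245 and 243 CPM in Soci and 315, 263, 179 and 437 CPM in Cogn, and the groups overlapped in both phases. Its difference was -0.54 ± 0.19 (SE, log2), and that of mt-Cytb, a subunit of complex III, was -0.40 ± 0.14 (edgeR, adjusted p = 0.408 for both). Of 18 glycolysis genes, 5 had an unadjusted p under 0.05 and a lower estimate and 1 a higher one, with the glucose transporter Slc2a1 at -0.31 ± 0.13 and Pfkp at -0.52 ± 0.22. The 32 cytosolic ribosomal protein genes had a median of -0.13, 31 of them with a lower estimate, and 4 had an unadjusted p under 0.05, among them Rpl13 at -0.21 ± 0.09 and Rpl23 at -0.16 ± 0.07. The 28 genes of cholesterol and fatty acid synthesis had a median of -0.09. The 16 heat shock and cold-inducible genes had a median of -0.12 (-0.03 without the libraries numbered 3), with Cirbp at 0.23 ± 0.10 and Hsph1 at -0.24 ± 0.11. The 24 cell cycle genes had a median of -0.05, with Tyms at 0.27 ± 0.11.

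Over both phases the lists of markers of other cell types had medians below 0, and several of these medians moved with single libraries. Of all genes tested, 12% had an unadjusted p under 0.05. All 19 neuron markers tested had a lower estimate, the median was -0.41, and 5 had an unadjusted p under 0.05. Their summed level ran from 2233 to 3820 counts in 1 M counts outside the ribosomal loci in Day Soci and from 3096 to 7841 in Day Cogn, and from 2650 to 5509 in Night Soci and from 2689 to 7967 in Night Cogn, so the groups overlapped. Rbfox3 and Gad1 differed by -0.72 ± 0.26 and -0.71 ± 0.25. The 11 ependymal markers tested had a median of -0.59, with Drc1 at -0.84 ± 0.33 and Ccdc39 at -0.61 ± 0.25, and the haemoglobin genes -1.13, with 5 of 5 at an unadjusted p under 0.05. Astrocyte markers had a median of -0.20, with Fgfr3 at -0.44 ± 0.19 and Sox9 at -0.41 ± 0.21, and oligodendrocyte markers -0.15, with Mobp at -0.40 ± 0.14 and Sox10 at -0.65 ± 0.29. Endothelial and mural markers had a median of -0.19, with Vtn at -0.36 ± 0.18 and Ly6c1 at -0.26 ± 0.13, and border macrophage markers -0.27, with Cbr2 at -0.36 ± 0.16 and Cd209f at -0.43 ± 0.19. The median was -0.34 for neutrophil and monocyte markers, with Plac8 at -0.57 ± 0.29 and Ngp at -0.63 ± 0.44. It was -0.18 for choroid plexus markers, with Slc4a5 at -0.27 ± 0.47 and Folr1 at -0.23 ± 0.49. In Day the choroid plexus median was 0.15, with 9 of 12 estimates higher in Soci, and that of neutrophil and monocyte markers was -0.01, with 5 higher and 5 lower. The choroid plexus median turned to 0.22 without the libraries numbered 1 and was -0.92 without those numbered 2. Without the libraries numbered 4 the oligodendrocyte and endothelial and mural medians were -0.07 and -0.09. Without Night Cogn replicate 1 the neuron, ependymal and astrocyte medians were -0.27, -0.38 and -0.09, and without Night Cogn replicate 4 the neutrophil and monocyte median was -0.14. The 2 lymphocyte markers tested, Cd4 and Cd79b, were at -0.31 and -0.01. The part of these cells in the other differences was not tested. The 20 genes of the dissociation response had a median of -0.05, with Fos at -0.50 ± 0.28. Of 30 lists, 27 had a median below 0. Scaled on library totals 8 did, namely the haemoglobin, ependymal, neuron, mitochondrial, neutrophil and monocyte and border macrophage lists, the ribosomal RNA loci and the Cdr1as network, and the other 22 lay above 0 with the bulk of genes.

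**Figure D4:**
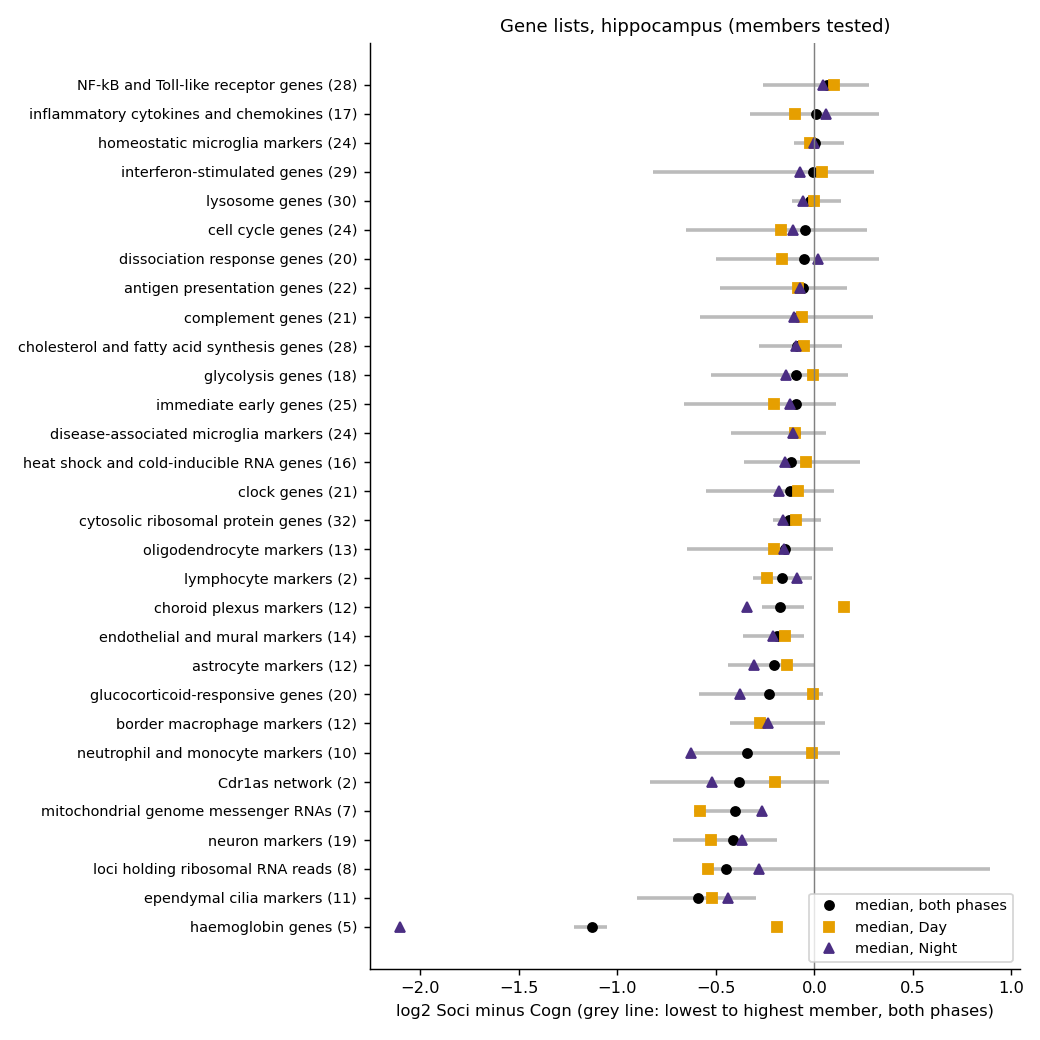
Median difference between Soci and Cogn of each gene list in hippocampal microglia on the log2 scale, over both phases and in each phase, with the number of members tested in brackets. Grey lines run from the lowest to the highest member over both phases. The haemoglobin list lies lowest, at -1.13 over both phases and -2.11 in Night, and the homeostatic microglia list lies at 0.00.

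Cdr1as, the circular RNA the study followed, has no count of its own here, since counts per gene do not separate circular from linear transcripts. By reads across the circular junction, the study placed Cdr1as among the most abundant circular RNAs of microglia. For the suprachiasmatic nucleus, the study held that every read at the Cdr1 locus could be assigned to the circle. The reads behind the counts used here were not examined in that way. The gene Cdr1 fell below the count filter, and 3 counts correspond to between 0.0355 and 0.258 CPM in these libraries. It was at 2.12 CPM in Night Soci replicate 2 and at most 0.433 CPM in the other 15. C230004F18Rik, on the opposite strand of the locus, differed by -0.83 ± 0.39 (SE, log2; edgeR, adjusted p = 0.408), and 1700020I14Rik, the long RNA Cyrano, by 0.07 ± 0.08. Gm42418 and Gm23935, other loci with reads of ribosomal RNA, differed by -0.51 ± 0.21 and -0.39 ± 0.81.

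Genes of several non-coding classes had higher estimates in Soci, most of all those of the class TEC and the sense-intronic RNAs. The classes were compared after their values were seen, so the counts are a description without a test. GENCODE uses the class TEC for transcribed regions that still lack experimental support as genes. Of 883 TEC genes tested, 794 (89.9%) had a higher estimate, with a median of 0.33, and 192 were higher and 6 lower at an unadjusted p under 0.05. Of 13752 protein-coding genes 42.8% had a higher estimate, with a median of -0.03, and 511 were higher and 985 lower. The 147 sense-intronic RNAs had a median of 0.32, the 249 processed pseudogenes 0.26, the 364 long intergenic RNAs 0.19 and the 314 antisense RNAs 0.17. The 89 snoRNAs had a median of 0.03, with 51.7% higher, and of -0.09 in Day. The TEC median was 0.32 in both Day and Night. By the level of the genes it was 0.25 for those with an average log2 CPM under 0, 0.33 from 0 to 2, 0.34 from 2 to 4 and 0.37 over 4, so it was higher at higher levels, as was that of protein-coding genes, at -0.22, -0.18, -0.04 and 0.00.

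Most TEC genes lie within coding genes on the same strand. For the 676 that do, the median was 0.33, against 0.05 for their 447 hosts, and 627 (92.8%) lay above their host. As a share of the counts outside the ribosomal loci, TEC genes held 0.873%, 0.557%, 1.10% and 1.07% in Day Soci and 0.828%, 0.447%, 0.659% and 0.828% in Day Cogn. They held 0.840%, 0.908%, 1.17% and 0.843% in Night Soci and 0.495%, 0.666%, 1.05% and 0.715% in Night Cogn. The groups overlapped in both phases, by 1 low Soci library in Day and 1 high Cogn library in Night. The means over both phases were 0.920% ± 0.194 in Soci, 0.711% ± 0.194 in Cogn, 0.734% ± 0.174 in Ctr0 and 0.763% ± 0.157 in Ctr1 (SD, n = 8). The share of counts at mitochondrial genes, also outside the ribosomal loci, 0.827% ± 0.236 in Soci and 1.03% ± 0.278 in Cogn, moved the other way, and its relation to the TEC share was not tested. In the frontal cortex the 818 TEC genes tested had a median of 0.06.

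**Figure D5:**
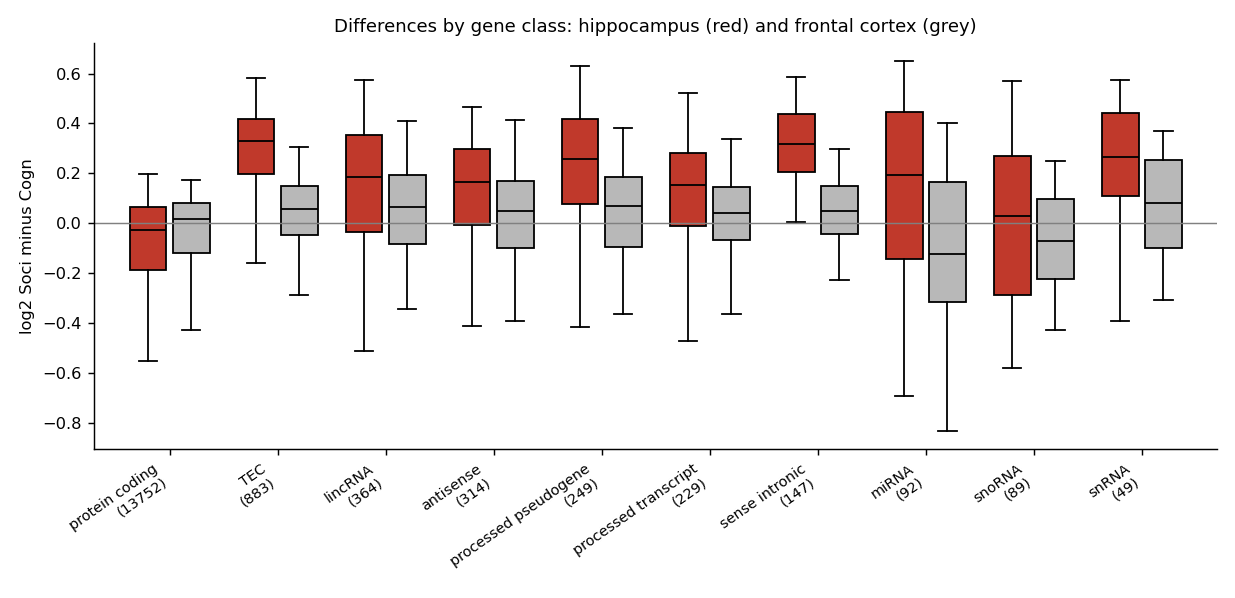
Differences between Soci and Cogn on the log2 scale by annotation class in hippocampus (red) and frontal cortex (grey), with the number of genes tested in hippocampus in brackets. Boxes span the quartiles with the median as a line, and whiskers the 5th to the 95th percentile. TEC and sense-intronic genes lie at medians of 0.33 and 0.32 in hippocampus, and protein-coding genes at -0.03.

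In the frontal cortex the same comparison gave no call either. Of 15699 genes edgeR called 0 (0%) and DESeq2 0, with 657 at an unadjusted p under 0.05 (4.18%), a number that was 434 without the libraries numbered 2 and 1203 without those numbered 4. For the difference between the regions edgeR called 0 of 16753 (0%) and DESeq2 0, with 189 at an unadjusted p under 0.05 (1.13%), which was 99 without the libraries numbered 3 and 1125 without those numbered 4. The labels do not tie the regions to animals, and the tests between regions took their libraries as independent. Of the genes tested in both regions 70.9% had the same sign, and of the 1918 with an unadjusted p under 0.05 in hippocampus 87.4% did. Apoe, at -0.42 in hippocampus, was at -0.02 ± 0.19 in the frontal cortex, a difference between the regions of -0.40 that did not pass (edgeR, adjusted p = 1.00). The genes of lowest p for the region difference were Nup107 of the nuclear pore, the phosphatase gene Inpp5f and Cep57l1, with a more positive value in hippocampus, and Pcnx4, the lipoprotein lipase gene Lpl and Susd1, with a more negative one. Lpl was at 5.66, 7.30, 7.36 and 3.77 CPM in Day Soci and 7.68, 7.98, 8.67 and 6.72 CPM in Day Cogn of the hippocampus, which overlapped, and its region difference was -0.58 (edgeR, adjusted p = 1.00). The haemoglobin list had a median of -1.16 in the frontal cortex and the mitochondrial list -0.33, the same sign as in hippocampus, while the disease-associated list was at 0.13.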

How the data were processed

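Total RNA of microglia was depleted of ribosomal RNA and sequenced from single ends. Per the submitters' processing notes and methods, the authors mapped reads with STAR 2.7.3a to build GRCm38.p5 and counted them per gene with featureCounts of Subread 2.0.0, and they deposited 1 table of raw counts, 49671 genes in 64 libraries. Ensembl identifiers were matched to GENCODE M21 of the same build (49412 genes). Reads that match several places could be split between copies of a gene in ways the sources used here do not give, and this touches the haemoglobin genes and the ribosomal loci. A floor of 3 counts covers counting error only. The intervals and SE of the fits also cover the spread between these libraries.

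The 8 Soci and 8 Cogn hippocampal libraries were fitted with edgeR 4.0.16 in R 4.3.3 (TMM scaling, filterByExpr, quasi-likelihood F test, phase as a term, Benjamini-Hochberg adjustment over all genes tested, threshold 0.05). Each phase and the phase difference came from a fit with 1 mean per group, and the frontal cortex and the region difference from like fits. The SE is the log2 difference divided by the square root of F. Differences are log2, Soci minus Cogn. Levels are CPM scaled by TMM over all 64 libraries. Single values were compared by exact permutation of the condition within phases (4900 arrangements). The fits were tested on simulated counts. DESeq2 1.42.0, other scalings, count filters, a replicate block and fits without each library were alternatives.

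Genes were named by rule: the 12 of lowest p in each direction whose log2 CPM averaged 2 or more and that have an assigned symbol, the 3 of lowest p in each direction for each phase, the phase difference and the region difference, the 2 of lowest p of each of 30 lists, the clock genes and the loci named with Cdr1as and Gm26917. The comparison, the lists and the rule were chosen with earlier results of these data known. Other genes named were chosen after their values were seen. Some genes that the rule takes are not reported here. No 2 replicates agreed within sampling noise (smallest chi-square per degree of freedom 15.7 over 24 pairs). In Night, the deviations of same-numbered Soci and Cogn libraries from their group means correlated at 0.85, 0.44, 0.83 and 0.11 for replicates 1 to 4. The last of these is weak. The blocked result of Night is given beside the main one. The pairing comes from the data, not from the labels.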

Additional observations from a re-analysis of the deposited data

Results flagged for a closer look

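In groups of 4 libraries, 30 measures were examined in each of the 4 hippocampal groups of Soci and Cogn, which makes 120 sets, and 8 sets held a library whose gap to the nearest other library took up most of the range of the group. For independent measures chance flags about 1 in 20 such sets, which is 6 of 120. These sets were not independent, since 24 of the 30 measures were leading genes picked for low p and the same libraries recur. The 8 sets therefore cannot be weighed against that rate. The total count stood apart in Day Cogn replicate 4 at 62.2 M (others 17.4 to 20.1 M), in Night Cogn replicate 4 at 65.7 M (others 15.7 to 17.9 M) and in Night Soci replicate 4 at 84.5 M (others 13.7 to 18.5 M). The share of counts at Gm23935 stood apart in the same 3 libraries. It was 3.19% in Day Cogn replicate 4 (others 0.208% to 0.525%). In Night it was 3.07% in Cogn replicate 4 (others 0.198% to 0.426%) and 3.78% in Soci replicate 4 (others 0.166% to 0.259%). High shares were not confined to libraries with high totals. Day Soci replicate 4 held 1.95% at a total of 11.6 M. Among the controls numbered 4, the share was 2.63% in Day Ctr0, 2.96% in Night Ctr0, 3.09% in Night Ctr1 and 0.0998% in Day Ctr1. Ncf4 was at 18.2 CPM in Night Cogn replicate 4 (others 20.1 to 20.3 CPM), and Dmpk was at 12.5 CPM in Night Soci replicate 1 (others 7.52 to 8.0 CPM). Without the libraries numbered 4, edgeR called 0 genes over both phases, in Day and in Night.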

How the results depend on the processing

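The number of calls over both phases was 0 under 27 of 29 alternatives. DESeq2 called 3 genes, with a lowest adjusted p of 0.0450, and in Night it called 1. With the replicate number taken as a block across both phases, edgeR called 0 genes in each comparison. A block of the 8 same-numbered pairs within phases, chosen after seeing the data, called 2512 genes over both phases (990 higher and 1522 lower in Soci, lowest adjusted p 0.00568), 85 of them on the gene lists, 0 in Day, 1 in Night and 0 for the phase difference. All 24 leading genes were past the threshold in that fit over both phases, with adjusted p between 0.00568 and 0.0283, and none was past it under any other alternative. The 24 had been picked for their low p in these same libraries, so their passing in that fit is no added support. The numbers counted as pairs only where every same-numbered pair had a correlation over 0.1. That held in Night, where the lowest correlation, 0.11, lay just over the limit. In Day it failed for 1 pair of 4, with correlations of -0.03, 0.46, 0.47 and 0.72. Among the Soci libraries 7 of 8 correlated best with their own number, a hint of pairing from the data. Whether the libraries are paired is not stated by the labels, so the 0 calls over both phases hold for unpaired libraries and for the block across both phases. The share of counts at Gm26917 differed by between -8.40 and -6.49 percentage points without 1 replicate number each. In the 8 pairs it differed by -7.29 points (exact sign-flip test, p = 0.0078, the smallest it can give). The share was chosen after an earlier result of these same data, so that p is not that of a fresh test. The gap between the TEC and protein-coding medians lay between 0.28 and 0.45 under 29 alternatives. On library totals the difference of Hpcal1 was 0.0052 in place of -0.24. Of 5516 further values of named genes and gene lists, 5345 kept their sign and 171 turned, 42 of these on library totals. Of the 4507 with an adjusted p, 70 were past the threshold with the block within phases and 4 with DESeq2.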
